A study of Mus musculus with 6 samples.

Results

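The 9 genes Itga4, Itga6, Itgb1, Vcam1, Cd44, Selplg, Cxcr4, S1pr1 and Tek encode receptors and adhesion molecules through which blood stem cells find, hold and leave their niche. They were followed across the 6 arrays of a mouse study of the corepressor gene Trim28, whose product is TIF1b. Members were the genes whose RefSeq accession on the array maps to these symbols, each represented by its brightest probe. All 9 of the 20283 named genes were on the array and all 9 passed the filter on low signal.

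KSL cells, which carry c-Kit and Sca1 and lack lineage markers, were sorted from fetal liver or from adult bone marrow of mice with a C57BL6 background. The fetal liver WT array came from Tie2-Cre, Tif1b w/w cells and the fetal liver KO array from Tie2-Cre, Tif1b f/f cells, with 1 array each. The 2 bone marrow WT arrays came from CreERT, Tif1b w/w cells and the 2 bone marrow KO arrays from CreERT, Tif1b f/f cells, so WT and KO carry the same Cre within a tissue. For replicate 2 of bone marrow the labelled genotype is spelled Tif2b, here taken to mean Tif1b, and the descriptions of both replicate 1 arrays name knockdowns of HP1 proteins in c-Kit+ Lineage- cells. Tie2-Cre is driven by the promoter of Tek itself and also acts in endothelial cells. The tissues therefore differ in Cre driver as well as in age. Separate animals are not stated for the arrays of a group, and a p-value may then measure technical spread only.

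Homing is the movement of stem cells into the marrow. It depends on the chemokine receptor CXCR4 and its ligand CXCL12. Rolling depends on selectin ligands such as PSGL-1, the product of Selplg. Firm adhesion depends on integrins, which pair an alpha chain with a beta chain and bind VCAM-1, fibronectin or laminin. Exit into blood follows gradients of sphingosine-1-phosphate read by S1PR1. TIE2, the product of Tek, is the receptor of the angiopoietins and is associated with quiescence of adult marrow stem cells.

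Of the 9 genes, 5 have a promoter in the RefSeq table used here (GRCm38.p6). The 250 bases before the start are shown for Cxcr4, Cd44 and Tek, which gave some of the larger differences below. Cxcr4 lies at chr1:128592300-128592549 on the minus strand, Cd44 at chr2:102901666-102901915 on the minus strand and Tek at chr4:94739039-94739288 on the plus strand. Capitals mark the core of ETS factor motifs, GGAA or TTCC.
Cxcr4: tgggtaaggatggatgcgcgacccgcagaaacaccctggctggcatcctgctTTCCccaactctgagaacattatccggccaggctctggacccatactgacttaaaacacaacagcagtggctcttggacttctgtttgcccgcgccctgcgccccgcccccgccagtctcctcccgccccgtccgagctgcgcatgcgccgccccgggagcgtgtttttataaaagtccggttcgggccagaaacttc
Cd44: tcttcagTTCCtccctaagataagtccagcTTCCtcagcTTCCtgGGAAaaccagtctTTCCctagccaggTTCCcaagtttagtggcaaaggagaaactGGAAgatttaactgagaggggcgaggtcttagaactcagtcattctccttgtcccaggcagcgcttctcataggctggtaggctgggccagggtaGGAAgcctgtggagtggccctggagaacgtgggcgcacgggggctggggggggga
Tek: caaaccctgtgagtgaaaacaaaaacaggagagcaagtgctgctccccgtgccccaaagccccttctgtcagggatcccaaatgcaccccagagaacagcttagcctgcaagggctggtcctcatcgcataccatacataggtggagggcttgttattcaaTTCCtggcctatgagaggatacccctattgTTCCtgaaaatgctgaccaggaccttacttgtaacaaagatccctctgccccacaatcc
Cd44 holds 8 such cores, Tek 2 and Cxcr4 1, against a median of 3 over 32851 promoters, of which 93.4% hold at least 1. The GATA motif AGATAA or TTATCT is found in 9.99% of all promoters, and of these 3 it occurs 1 time, in Cd44. Both strands were searched and the motifs may overlap. The Cxcr4 window holds 19 CG dinucleotides, Cd44 5 and Tek 2, against a median of 6. These matches describe the letters only.

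Every level below is the log2 signal relative to the 75th percentile of its own array, so 0 is the 75th percentile. Signal at that percentile ran from 211 to 325 on the fetal liver and bone marrow replicate 1 arrays and was 737 and 743 on the bone marrow replicate 2 arrays. The probes well above background numbered 24383 to 31419. Trim28 was lower on every KO array, at 1.68 in fetal liver and at 1.28 and 0.75 in bone marrow. Its WT levels were 5.97 in fetal liver and 5.55 in bone marrow replicate 2. One array, labelled bone marrow WT replicate 1, stood apart. Its scanner file gave 2.45 for Trim28, 1.30 for the stem cell receptor Kit and a median of 4.22 over 10 B lymphoid markers. Its column in the deposited value table gave 5.18, 4.16 and -3.32. The column matched the scanner file within 1% for 1.412% of probes, against 100% on the 5 other arrays. Values are therefore given from both sources, and those of the value table lead. Which source holds the labelled cells was not tested.

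For 5 of the 9 genes the sources of that 1 array lay over 2-fold apart, a share that was not counted over all genes. For Cxcr4 the scanner file read 3.48 where the table read 2.33, and for Selplg 6.39 and 5.27. S1pr1 read 1.67 and -0.10, and Itga6 read 3.55 and 5.57. Tek read -6.38, not well above background, by scanner and -2.36 by table. The scanner value lay within the range of the 3 other bone marrow arrays for 2 genes and the table value for 4. The plot of levels by array shows both readings.

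**Figure D1:**
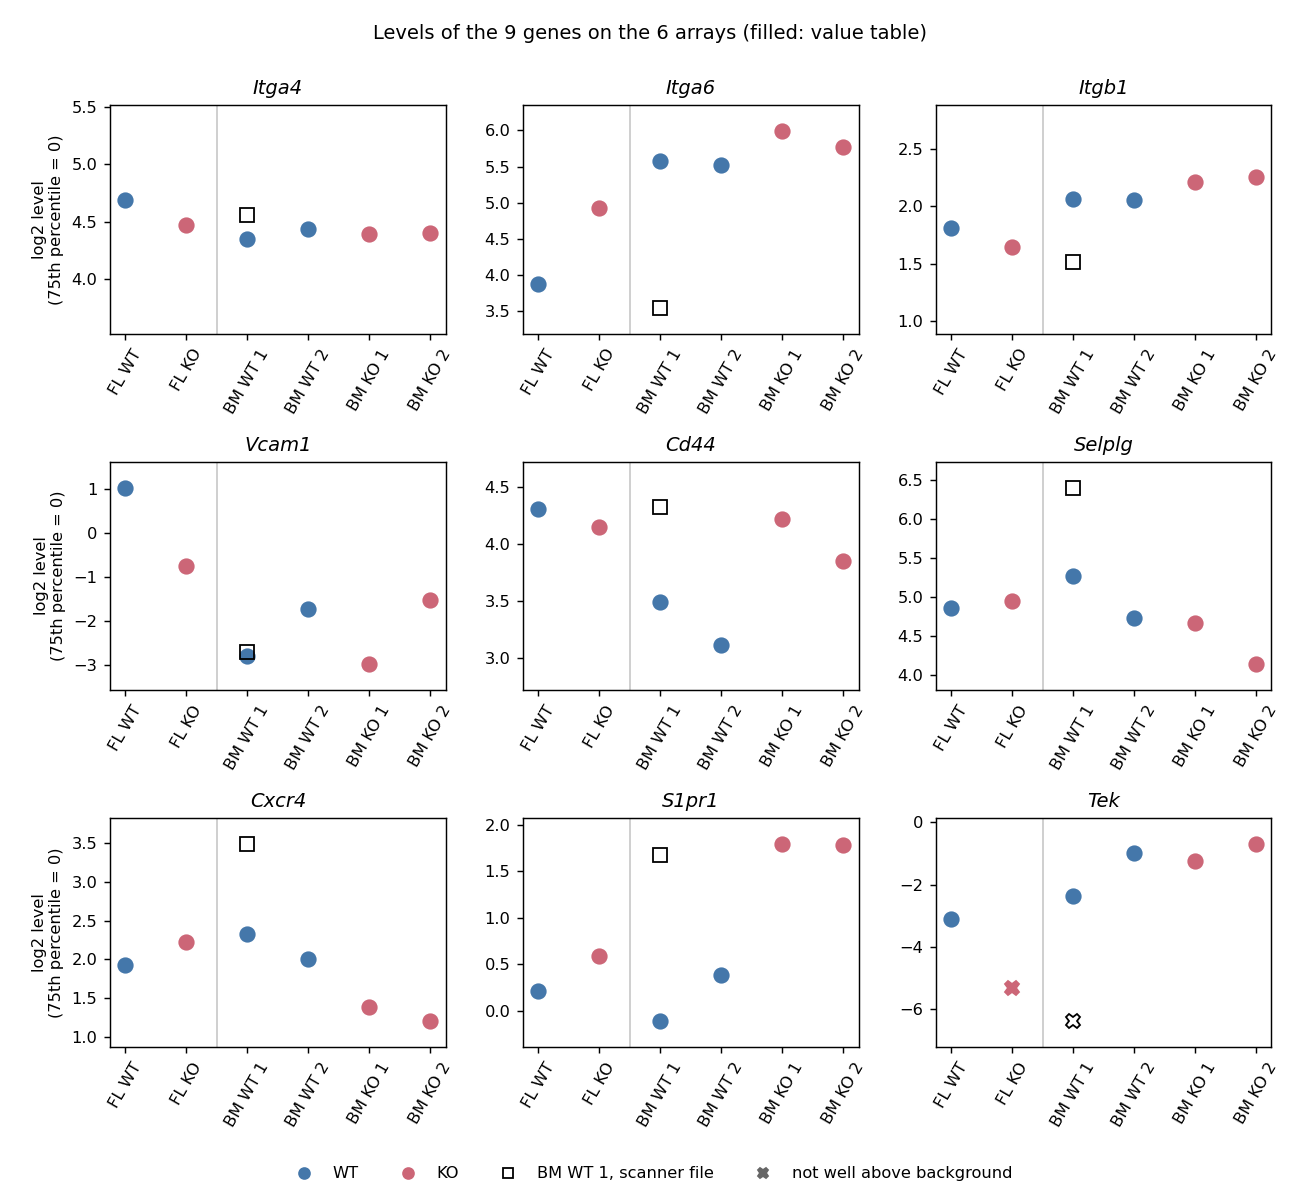
Log2 level of each of the 9 genes (vertical axis, 0 is the array's 75th percentile) on the fetal liver (FL) and bone marrow (BM) arrays (horizontal axis), 1 point per array, blue for WT and red for KO. Open squares are the scanner file of bone marrow WT replicate 1 and crosses are readings not well above background. S1pr1 sits at 1.79 and 1.78 in the bone marrow KO arrays and at -0.10 and 0.39 in WT, while the scanner reading of 1.67 lies beside the KO points.

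Loss of Trim28 in bone marrow was examined over 4 arrays with limma. None of the 9 genes passed at an adjusted p under 0.05 in the value table, where 0.501% of 12785 genes passed as higher and 0.438% as lower. By unadjusted limma p, 3 of the 9 were under 0.05 there, S1pr1, Cxcr4 and Cd44, as were 1414 of the 12785 genes. In the scanner files 0 of 13011 genes passed, or 0%, with 548 under an unadjusted 0.05, none of them among the 9. Both KO arrays lay above both WT arrays for 4 of the 9 genes in the table (17.6% of all genes) and below for 2 (19.6% of all genes). The median difference of the 9 was 0.18, beside -0.05 over all genes. Each slide held 1 WT and 1 KO array of a replicate number, and a fit with slide as a block called 956 genes in place of 120.

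Among the integrin chains, Itga4 makes the alpha chain of VLA-4, the receptor for VCAM-1 and fibronectin. Its bone marrow levels were 4.35 and 4.43 in WT and 4.39 and 4.40 in KO. The groups overlapped and differed by 0.01 ± 0.24 (SE; limma adjusted p = 0.999), with a 95% interval of -0.60 to 0.61. An interval of this width does not show that the levels are equal.

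Itga6 makes the alpha chain of the laminin receptor. It read 5.57 and 5.51 in WT and 5.99 and 5.77 in KO. Both KO arrays were higher, by 0.33 ± 0.25 (SE), which did not pass (limma adjusted p = 0.818). The scanner files put the difference at 1.34 ± 0.72 (SE; limma adjusted p = 1). That rests on the pair of replicate 1, which gave 2.43 there and 0.41 in the table.

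Itgb1 makes the beta chain shared by VLA-4 and the laminin receptor. It read 2.06 and 2.06 in WT and 2.21 and 2.26 in KO. The shift of 0.18 ± 0.24 (SE) did not pass (limma adjusted p = 0.968). A second Itgb1 probe gave 0.47 and 0.05 in the pairs, where the representing probe gave 0.15 and 0.20.

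Vcam1, the ligand of VLA-4, read -2.78 and -1.72 in WT and -2.97 and -1.52 in KO. The arrays followed the replicate number and not the genotype, and the pairs gave -0.19 and 0.20. The difference was 0.00 ± 0.59 (SE; limma adjusted p = 1), with a 95% interval of -1.48 to 1.49. A second Vcam1 probe was not above background on any array.

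Cd44, a receptor for hyaluronan and a carrier of E-selectin ligands, read 3.50 and 3.11 in WT and 4.21 and 3.85 in KO. Both KO arrays were higher, and the pairs gave 0.72 and 0.74. The difference of 0.73 ± 0.29 (SE), or 1.66-fold, did not pass (limma adjusted p = 0.444, and 0.0687 with the slide as a block). Of the other Cd44 probes above background on the 4 bone marrow arrays, 1 gave 0.83 and 0.80, another 0.53 and 0.26, and the third -0.14 and 0.00. Over the mean of all its probes the difference was 0.47 ± 0.34 (SE; limma adjusted p = 0.787). Pair 1 of the scanner files gave -0.11, and there the groups overlapped.

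Selplg, which encodes the selectin ligand PSGL-1, read 5.27 and 4.74 in WT and 4.66 and 4.14 in KO. Both KO arrays lay below both WT arrays, by 0.60 and 0.59 within the pairs. The difference of -0.60 ± 0.33 (SE) did not pass (limma adjusted p = 0.657). A second probe gave -0.64 and -0.49. The plot by probe shows both Selplg probes below 0 in bone marrow and the spread of the 4 Cd44 probes.

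**Figure D2:**
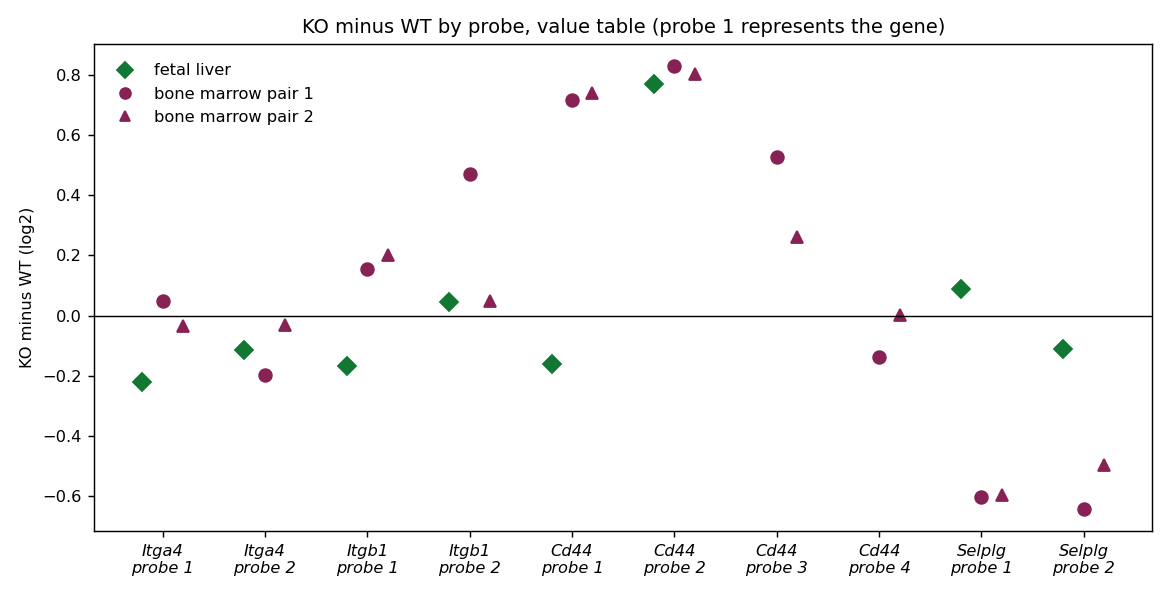
KO minus WT on the log2 scale (vertical axis) for each probe above background on all 4 bone marrow arrays of the 4 genes with more than 1 such probe, from the value table, with diamonds for fetal liver, circles for bone marrow pair 1 and triangles for pair 2. A diamond is drawn where both fetal liver arrays were above background. The Cd44 probes run from -0.14 to 0.83 in the bone marrow pairs and the Selplg probes from -0.64 to -0.49.

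Cxcr4, the receptor for CXCL12, read 2.33 and 2.00 in WT and 1.38 and 1.21 in KO. Both KO arrays lay below both WT arrays, by 0.94 and 0.79 in the pairs. The difference was -0.87 ± 0.27 (SE), or 1.82-fold lower, with limma adjusted p = 0.297. Under the slide block limma gave an adjusted p of 0.0484. Without bone marrow WT replicate 1 it was -0.70 ± 0.49 (SE; limma adjusted p = 1). By scanner files it was -1.44 ± 0.59 (SE; limma adjusted p = 1).

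S1pr1 showed the largest of the 9 differences in the table. It read -0.10 and 0.39 in WT, with a mean of 0.14 ± 0.35 (SD, n = 2), and 1.79 and 1.78 in KO, with a mean of 1.78 ± 0.01 (SD, n = 2). The KO level was 3.12-fold higher, at 1.64 ± 0.28 (SE) on the log2 scale, and 98.3% of genes had a lower difference. S1pr1 was the only one of the 9 to differ at least 2-fold the same way in both pairs, a size reached by 2.6% of genes upward and 2.85% downward. It did not pass without a block (limma adjusted p = 0.0865) and passed with the slide as a block (adjusted p = 0.0157).

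The S1pr1 value depended on the array labelled bone marrow WT replicate 1. Without it the difference was 1.39 ± 0.49 (SE; limma adjusted p = 0.538). Without bone marrow WT replicate 2, so that this array alone stood for WT, it was 1.89 ± 0.51 (SE; limma adjusted p = 0.0175). In both fits WT is 1 array, whose spread is taken to be that between the 2 KO arrays. From the scanner files pair 1 gave 0.12 and pair 2 gave 1.39, and the difference over both was 0.75 ± 0.54 (SE; limma adjusted p = 1).

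Tek read -2.36 and -0.97 in WT and -1.23 and -0.71 in KO. The groups overlapped and the difference was 0.69 ± 0.51 (SE; limma adjusted p = 0.807). The scanner file of WT replicate 1 did not hold Tek well above background, and KO replicate 1 was at least 8.47-fold higher. Such a bound sets the brighter array against the lowest signal well above background on the dimmer array, since the dim probe's own level is not measured.

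Some lists of markers of maturing cells differed between WT and KO on the same bone marrow arrays. The summed level of 10 neutrophil markers, as a log2 value, was 10.59 and 9.75 in WT and 8.60 and 7.20 in KO in the table. For 9 monocyte and macrophage markers it was 7.33 and 6.31 in WT and 4.83 and 4.07 in KO. For 10 erythroid markers it was 4.63 and 4.27 in WT and 9.18 and 6.25 in KO. The 10 megakaryocyte markers gave 7.13 and 6.98 in WT and 8.0 and 8.16 in KO. WT and KO overlapped for the B lymphoid markers (4.65 and 4.43, then 3.90 and 5.36). They also overlapped for the T and NK cell markers (6.66 and 6.27, then 7.19 and 6.47). The scanner file of WT replicate 1 gave 10.67 for neutrophil, 9.38 for monocyte and macrophage, 11.11 for erythroid and -0.13 for megakaryocyte markers. By scanner files WT and KO thus overlapped for the erythroid markers. The part of these cells in the differences of Cxcr4, Selplg, Cd44 and S1pr1 was not tested. In sorted bulk cells, fewer cells of a type and less RNA per cell cannot be told apart.

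Each genotype of fetal liver was measured on 1 array, which allows no test and no replicate check. Of the 9 genes, 1 was at least 2-fold higher in KO, as were 5.33% of 12702 genes, and the readings of 2 were at least 2-fold lower, as were those of 4.42%. Of these 2, Vcam1 was above background in both genotypes and Tek was not. Itga6 was 3.88 in WT and 4.92 in KO, a 2.06-fold difference between these arrays. Vcam1 was 1.02 in WT and -0.76 in KO, which is 3.43-fold lower. Tek was -3.11 in WT and not well above background in KO, at -5.33, so that KO was at least 1.14-fold lower.

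The 6 other genes differed by at most 0.37 on the log2 scale in fetal liver. Cxcr4 read 1.92 and 2.22 (WT, then KO), S1pr1 0.21 and 0.59, and Selplg 4.86 and 4.95. Itga4 read 4.69 and 4.47, Itgb1 1.81 and 1.65, and Cd44 4.31 and 4.15. The 2 Cd44 probes above background on both arrays disagreed there, at -0.16 and 0.77. The plot of differences by pair sets the tissues side by side.

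**Figure D3:**
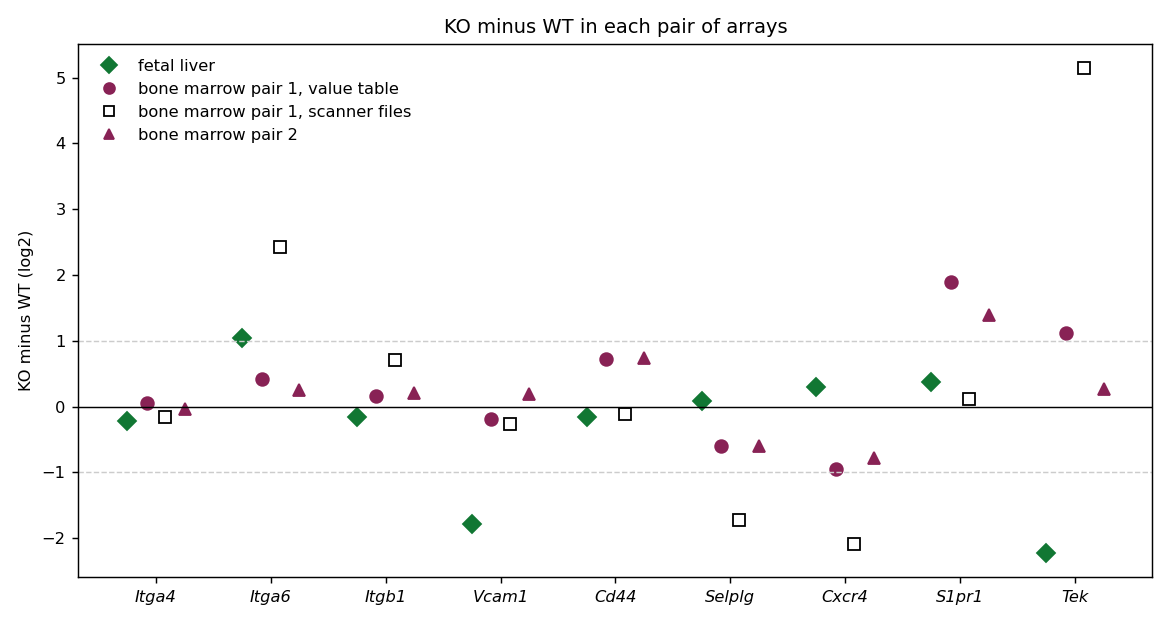
KO minus WT on the log2 scale (vertical axis) for the 9 genes in each pair of arrays, with green diamonds for fetal liver, circles and triangles for bone marrow pairs 1 and 2 of the value table and open squares for pair 1 of the scanner files. S1pr1 lies at 1.89 and 1.39 in bone marrow and at 0.37 in fetal liver, and dashed lines mark a 2-fold difference.

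Whether the KO difference was unequal between bone marrow and fetal liver was tested as an interaction, given as bone marrow minus fetal liver. In this test the spread was estimated from bone marrow and taken to hold for fetal liver. With limma 0 of 13501 genes passed in the table and 0 of 13662 in the scanner files, or 0% in each, with 954 and 351 genes under an unadjusted 0.05. A fit of the table blocked by slide called 368 genes, none of them among the 9. The interaction of Tek was 2.92 ± 0.90 (SE; limma adjusted p = 0.486, and 0.0617 with the slide as a block). It rested on the fetal liver KO reading below background and was 0.89 with such readings raised to the array's floor, the lowest level well above background. For Vcam1 the interaction was 1.78 ± 1.05 (SE) and did not pass (limma adjusted p = 0.0845 with the slide as a block). For S1pr1 it was 1.27 ± 0.50 (SE; limma adjusted p = 0.706) and for Cxcr4 -1.17 ± 0.47 (SE; limma adjusted p = 0.716).

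Bone marrow was then set against fetal liver over all 6 arrays, with genotype in the model. Itga6 and Tek were higher in bone marrow and Vcam1 was lower in the table, so 2 of the 9 passed as higher, as did 8.91% of 13501 genes, and 1 as lower, as did 14%. In the scanner files none of the 9 passed, where 0.871% of genes passed as higher and 1.23% as lower. In the table the 4 bone marrow arrays lay above both fetal liver arrays for 3 of the 9 (17.9% of all genes). They lay below for 2 (36.8% of all genes). By scanner files Vcam1 alone of the 9 kept the tissues apart, and the share over all genes was not counted there. With slide as a random block 839 genes passed in the table in place of 3088, none of them among the 9. The median difference of the 9 was -0.19, beside -0.26 over all genes. Quantile scaling moved the median over all genes to -0.04 and the share of higher calls from 39% to 53.8% in the table, and from 41.5% to 52.8% in the scanner files.

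Itga6 averaged 5.71 ± 0.21 (SD, n = 4) in bone marrow and 4.40 ± 0.74 (SD, n = 2) in fetal liver. The bone marrow arrays ran from 5.51 to 5.99 and the fetal liver arrays were 3.88 and 4.92, with no overlap. The difference was 1.31 ± 0.23 (SE), or 2.48-fold (limma adjusted p = 0.0187). It was 0.0789 with the slide as a random block, 0.0594 without bone marrow WT replicate 1 and 0.124 without the fetal liver WT array. The scanner files gave 0.80 ± 0.58 (SE; limma adjusted p = 0.406), since the replicate 1 WT array read 3.55 there.

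Tek averaged -1.32 ± 0.72 (SD, n = 4) in bone marrow and read -3.11 and -5.33 in fetal liver, the second below background. The fitted difference was 2.90 ± 0.75 (SE; limma adjusted p = 0.0454). With readings below background raised to the array's floor it was 1.89 ± 0.45 (SE; limma adjusted p = 0.037). Among KO arrays alone, bone marrow was at least 5.04-fold higher. The adjusted p was 0.159 with the slide as a random block, 0.26 without the fetal liver KO array and 0.0364 when bone marrow WT replicate 1 was left out. From the scanner files it was 1.90 ± 1.82 (SE; limma adjusted p = 0.53).

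Tek is also an endothelial gene. Of 12 endothelial markers, 9 were above background on each fetal liver array and 8 to 10 on the bone marrow arrays. Their summed log2 level was 8.34 and 8.22 in fetal liver and 6.96 to 7.56 in bone marrow. The median of these 12 markers was -0.25 and -0.38 in fetal liver and -0.61 to -0.21 in bone marrow, with overlap. Their part in the Tek difference was not tested. The summed log2 level of the 12 stem cell and sort markers was 8.38 and 8.30 in fetal liver and 8.22 to 8.55 in bone marrow. Their median was 1.63 and 1.76 in fetal liver and 1.97 to 2.98 in bone marrow. Among them Ly6a, the gene of Sca1, read 0.31 and 0.77 in fetal liver and 3.36 to 6.04 in bone marrow. Kit read 4.50 and 4.30 in fetal liver and 4.16 to 4.35 in bone marrow of the table.

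Vcam1 ran the other way. It read 1.02 and -0.76 in fetal liver and -2.97 to -1.52 in bone marrow, with no overlap. The difference was -2.38 ± 0.63 (SE), or 5.21-fold lower in bone marrow (limma adjusted p = 0.0473). The adjusted p was 0.13 with the slide as a random block, 0.0884 without bone marrow WT replicate 1 and 0.26 without the fetal liver WT array, where the difference was -1.49. The scanner files gave -2.36 ± 0.65 (SE; limma adjusted p = 0.122). The sources differ in 1 array only, where Vcam1 read -2.70 by scanner and -2.78 by table, so the like size is no separate check. Of the 10 stromal markers, 4 and 6 were above background in fetal liver and 3 to 6 in bone marrow. Their summed log2 level was 4.78 and 4.98 in fetal liver and 2.84 to 3.99 in bone marrow. Lepr alone read 4.61 and 4.71 in fetal liver and 2.01 to 3.20 in bone marrow. The median of these 10 markers was -4.37 and -2.22 in fetal liver and -5.30 to -4.02 in bone marrow, with overlap. Their part in the Vcam1 difference, like that of the endothelial markers, was not tested.

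The 6 other genes did not pass between tissues. Itgb1 was 0.42 ± 0.18 (SE) higher in bone marrow with no overlap in the table (limma adjusted p = 0.14). Itga4 was -0.19 ± 0.17 (SE) with no overlap in the table, and 0.17 under quantile scaling. S1pr1 gave 0.56, Cd44 -0.56, Cxcr4 -0.34 and Selplg -0.21 on the log2 scale, each with overlapping tissues. For S1pr1 the KO arrays of bone marrow exceeded the fetal liver KO array by 1.20 and 1.19, and the WT arrays by -0.32 and 0.18.

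**Figure D4:**
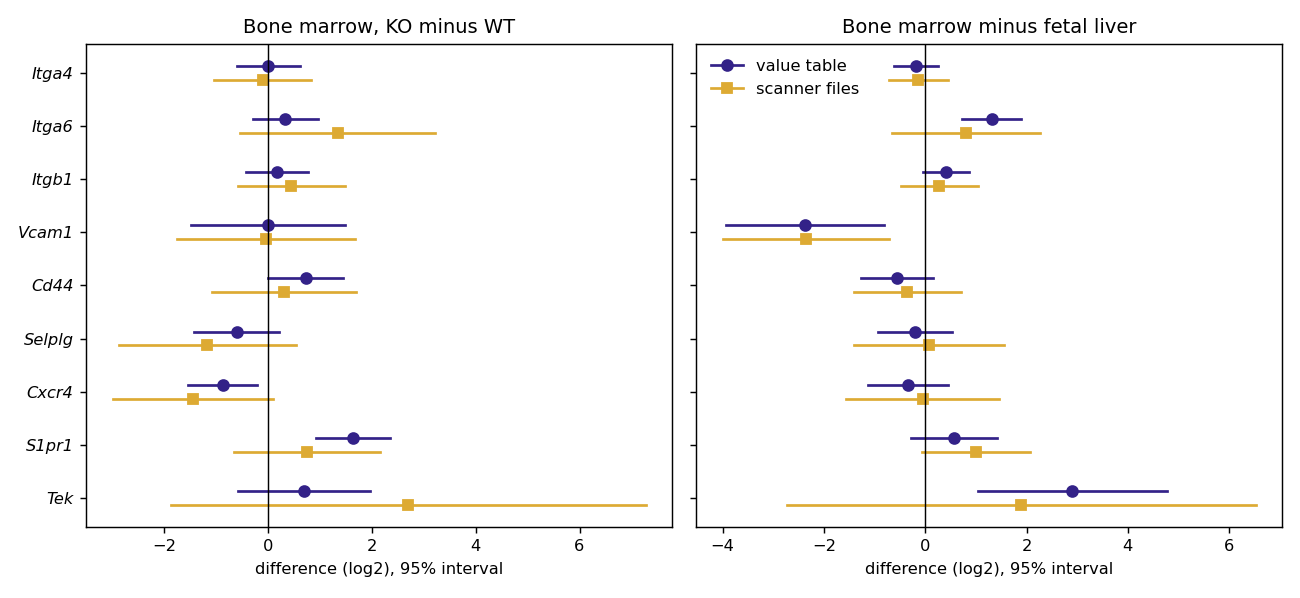
Differences on the log2 scale with 95% intervals (horizontal axis) for the 9 genes (vertical axis), bone marrow KO minus WT on the left and bone marrow minus fetal liver on the right, circles for the value table and squares for the scanner files. The intervals are not adjusted for the number of genes. In the table those of Itga6, Tek and Vcam1 (right panel) and S1pr1, Cxcr4 and Cd44 (left panel) lie clear of 0. Of the scanner intervals, only that of Vcam1 in the right panel does.

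The level of a gene over the arrays can be described by the genes whose pattern was most like it. Over the 6 table columns the nearest patterns to Itga6 by Pearson's r were Metrnl (0.99), Serinc3 (0.99) and Naprt (0.99), out of 5822 genes. For Vcam1 they were Olfr629 (0.99), Tbc1d24 (0.99) and Pparg (0.98). For Tek they were Acot2 (0.99), Zfp74 (0.99) and Slc24a5 (0.99), out of 5823 genes. The 6 columns share slides and tissues, and with so many candidates a high r is a description only.

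Other genes of adhesion and homing were drawn from 8 lists of ligands, integrins, receptors, glycosylation enzymes, signalling proteins and proteases, of which 137 of 139 genes were on the array. In bone marrow KO against WT, 3 of 114 tested in the table passed as higher and 3 as lower, and none of 115 passed in the scanner files. Over all genes 0.501% passed as higher and 0.438% as lower in the table, and 0% passed in the scanner files. With the slide as a block 14 partner genes passed as higher and 7 as lower, where 490 and 466 of all 12785 genes did. S1pr3, a second receptor of sphingosine-1-phosphate, read 0.10 and 0.48 in WT and -2.72 and -2.55 in KO. It was 7.59-fold lower, by -2.92 on the log2 scale (limma adjusted p = 0.0219), opposite in sign to S1pr1. The scanner files gave -2.42 (limma adjusted p = 1). Of 13 other homing receptors tested, S1pr3 was the 1 that passed, 2 differences lay above 0 and the median was -0.40. Over all genes 44.2% of differences lay above 0 and the median was -0.05.

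Among the 15 other integrin chains tested, Itgb5 read 1.48 and 0.95 in WT and -0.87 and -1.16 in KO, a difference of -2.23 on the log2 scale (limma adjusted p = 0.0492, and 0.213 without WT replicate 1), against -1.48 in the scanner files. Itgb6 passed as higher (difference 3.19; limma adjusted p = 0.0219; 4.32 in the scanner files), with 1 of 2 WT arrays above background. Epcam, an epithelial adhesion molecule, passed as higher (5.79; limma adjusted p = 0.0234), again with 1 of 2 WT arrays above background, so that its size is uncertain. The scanner files gave 2.87 for Epcam. Of the proteases, Mmp14, a membrane metalloprotease, was higher by 1.96 (limma adjusted p = 0.0469, and 0.215 without WT replicate 1), and by 3.34 in the scanner files. Elane, the neutrophil elastase gene and one of the neutrophil markers above, differed by -4.27 (limma adjusted p = 0.0377), and by -3.10 in the scanner files. In the scanner files none of these 5 genes passed, with adjusted p from 0.85 to 1.

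Between tissues, 23 of 120 partner genes tested in the table passed as higher in bone marrow and 18 as lower. Over all genes 8.91% passed as higher and 14% as lower. With slide as a random block 5 partner genes passed as higher and 5 as lower, where 375 and 464 of all 13501 genes did. Without bone marrow WT replicate 1 the partner counts were 11 and 10, where 684 and 872 of all 14449 genes passed. The partner genes with the lowest adjusted p in the table were Selp and Itga2b. Selp, which encodes the platelet and endothelial selectin that binds PSGL-1, was 22.0-fold higher. Itga2b, the platelet integrin chain, was 6-fold higher. Mmp14 and Alcam, an adhesion molecule of the immunoglobulin family, were higher as well. Neither was above background in fetal liver, so that Mmp14 was at least 2.78-fold and Alcam at least 4.84-fold higher in bone marrow. The chemokine receptor genes Cxcr3 (12.4-fold) and Ccr7 (9.51-fold) were lower in bone marrow.

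The integrin ligand genes Fn1, for fibronectin (6.94-fold), and Lamb1, for a laminin chain, were lower in bone marrow too. Lamb1 was not above background on any bone marrow array and was at least 5-fold lower. Fn1 was thus lower in the same tissue as Vcam1, which encodes another ligand of VLA-4. Itga9 (15.7-fold) and Ptger2, a prostaglandin receptor gene (15.3-fold), completed the 10 lowest adjusted p-values, which lay between 0.00137 and 0.0115. Of these 10 genes, Ptger2 did not pass with the random block (limma adjusted p = 0.0665). The scanner files gave smaller differences for several, among them 0.40 on the log2 scale for Itga2b against 2.59 in the table, -1.59 for Ccr7 against -3.25, -2.44 for Cxcr3 against -3.64 and 3.31 for Selp against 4.46. Itga9 was above background on 1 of 2 bone marrow WT arrays and Ptger2 on 1 of 2 KO arrays, and their folds come from the fit. In the scanner files 2 of 121 partner genes passed, both lower in bone marrow, Lamb1 (limma adjusted p = 0.0288) and Itga9 (limma adjusted p = 0.03). Over all genes 0.871% passed as higher and 1.23% as lower there.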

How the data were processed

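Expression was measured on 6 Agilent arrays in 1 colour. Spot intensity in the deposited scanner files is given after the scanner software's background correction, per the file headers; the software was Agilent Feature Extraction (10.7.1.1), as the submitters' processing notes name it. The authors' value table holds a linear ratio per probe. It equals the scanner signal divided by a constant on 5 arrays (ratios of at least 0.1, within 1%), with no centring of genes seen; how the column of bone marrow WT replicate 1 was made is not given in the sources used here. The array design names mm9 per the file headers.

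Levels are log2 of the deposited signal minus the array's 75th percentile. Control and outlier spots were left out and repeated spots averaged. RefSeq accessions named 26755 of 55681 probes. A gene was tested if every array of some group showed it well above background; for the table's column of bone marrow WT replicate 1 a level of -3.7 stood in for the flag, which matched 99.1% of flags on its slide partner. Tests used limma 3.58.1 (R 4.3.3, with the data.table package at version 1.17.8), with Benjamini-Hochberg adjustment over all genes tested and a threshold of 0.05. The script was tested on simulated data. A slide carries a WT and a KO array from the same tissue; deviations of same-numbered bone marrow arrays correlated at 0.56 (table) and 0.05 (scanner files) across genes, over only 2 pairs. Both arrays of a number share a slide, so blocked values stand beside results they change. The normexp alternative (offset 50) used the median signal. The number of arrays limits the precision.

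The 9 genes, the marker and partner lists and the tests were chosen with earlier results of these data known. All 9 are named, and partner genes that passed, at most 10 per comparison. Alternatives covered scaling, background, filters, probe choice, blocks and left-out arrays. Leaving out fetal liver arrays and the floor were chosen after seeing the data, as were the partner calls with a block or without bone marrow WT replicate 1.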

Additional observations from a re-analysis of the deposited data

Results flagged for a closer look

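For 4 of the 9 genes the KO difference ran one way in fetal liver and the other way in both bone marrow pairs, in both sources. Cd44 did so in the table only, at -0.16 and then 0.72 and 0.74, an interaction of 0.89. Pair 1 of the scanner files gave -0.11 for Cd44, and another Cd44 probe gave 0.77, then 0.83 and 0.80 in the table. How many of all genes did so was not counted. The sources share the fetal liver pair and bone marrow pair 2, so they are not separate checks. Tek was -2.22 in fetal liver, where the KO reading was below background, and 1.13 and 0.26 in the bone marrow pairs of the table, an interaction of 2.92 (limma adjusted p = 0.486). Cxcr4 was 0.30 in fetal liver and -0.94 and -0.79 in bone marrow, an interaction of -1.17 (adjusted p = 0.716). Selplg was 0.09 and then -0.60 and -0.59, an interaction of -0.69 (adjusted p = 1). Itgb1 was -0.17 and then 0.15 and 0.20, an interaction of 0.34 (adjusted p = 1). The second probes of Selplg (-0.11 in fetal liver, -0.64 and -0.49 in bone marrow) and of Itgb1 (0.04, then 0.47 and 0.05) showed no such turn. None of these genes, Cd44 included, passed limma's test of the difference between tissues, and fetal liver rests on 1 array per genotype.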

How the results depend on the processing

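The precision is limited by 2 arrays per bone marrow group and 1 per fetal liver group, and by signal over background for Tek. In the table, genes passing in bone marrow KO against WT numbered 120, and 56 with low readings raised to the floor, 11 with no filter, 29 when above background on all arrays, 956 with the slide as replicate block (the paired fit) and 90 to 657 with 1 array left out. Between tissues 3088 became 1794 with no filter, 839 with slide as a random replicate block and 817 to 1709 with 1 array left out. The interaction count of 0 became 88 under quantile scaling, 368 with the replicate block and 0 to 212 with 1 array left out. In the scanner files the counts with 1 array left out ran from 0 to 2392 (KO), 0 to 1552 (tissue) and 0 to 1449 (interaction), and normexp gave 182 in place of 287 between tissues. The blocks changed the member calls given in the report and no other. Scanner KO differences without bone marrow WT replicate 2 were Tek 5.41, Itga6 2.32, Cxcr4 -2.18 and Selplg -1.99. In that fit Itgb1 gave 0.72, Vcam1 0.46, S1pr1 0.11, Itga4 -0.16 and Cd44 -0.29. WT was then 1 array, the one whose sources disagreed. In the table the Tek interaction was 3.61 without bone marrow WT replicate 2.

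Some differences changed sign. In the KO comparison these were Vcam1 (scanner files: 0.042 quantile, 0.020 normexp, -0.76 to 0.69 leaving 1 array out; table: -0.0056 quantile, -0.72 to 0.73), Cd44 (scanner: -0.0078 over all probes, -0.29 to 0.92) and Itga4 (table: -0.053 over all probes, -0.038 to 0.050). Between tissues they were, in the scanner files, Cxcr4 (0.077 quantile, 0.028 median scaling, 0.16 normexp, -0.93 to 0.82), Itga4 (0.28 quantile, 0.11 normexp), Cd44 (0.38 over all probes), Itgb1 (-0.029 to 0.59), Selplg (-0.55 to 0.70) and Tek (1.90 as fitted, -0.57 to 4.36, the lowest without the fetal liver KO array). In the table they were Itga4 (0.17 quantile), Selplg (0.17 quantile, 0.073 over all probes, -0.55 to 0.14), Cd44 (0.14 over all probes), Cxcr4 (-0.93 to 0.24) and S1pr1 (-0.071 to 1.20). The Cd44 interaction was -0.066 over all probes. The cause was not tested. Under 14 alternatives for the tissue difference, the call was lost in 5 for Itga6 and in 9 for Vcam1, and under 13 in 7 for Tek, with adjusted p from 0.0104 to 0.124, 0.0185 to 0.26 and 0.0171 to 0.26. S1pr1 in bone marrow KO kept its direction in all 12 alternatives, with adjusted p from 0.0157 to 0.538, and Cxcr4 likewise, from 0.0484 to 1.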

Other observations

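Klf2 and Itgb7 were singled out after their values were seen. Klf2, a transcription factor gene whose product is known to activate S1pr1 in lymphocytes, read 8.31 and 8.03 (WT, then KO) in bone marrow pair 1 of the table and 2.90 and 3.67 in pair 2, against 5.75 and 5.42 in fetal liver, so its level followed the slide and not the genotype. Itgb7, whose product is the other beta chain that pairs with the Itga4 product, read 6.76 in the scanner file of bone marrow WT replicate 1 and 3.20 to 4.31 in the 6 columns of the table.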
